A study of Mus musculus with 8 samples.

Results

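The genes described here encode the subunits of the respiratory chain and of the ATP synthase that are made from nuclear genes. They were found by symbol, as genes named Nduf followed by a, b, c, s or v and a number (complex I), Sdha to Sdhd (complex II), Uqcr (complex III), Cox4 to Cox8 followed by a letter (complex IV) and Atp5 (complex V, the ATP synthase). The pattern matched 83 of the 17910 genes of the count table: 38 of complex I, 4 of complex II, 8 of complex III, 16 of complex IV and 17 of complex V. RNA was sequenced from embryonic mouse fibroblasts (MEFs) of wild-type genotype, which are connective tissue cells, bought from a cell bank and grown in DMEM with serum. The 4 groups of 2 libraries were control cells, cells given SRT1720 at 0.2 µM, cells given RSL3 at 1 µM for 2 h, and cells given SRT1720 for 30 min before RSL3 at those doses. RSL3 is a covalent inhibitor of the lipid peroxidase GPX4 that is used to start ferroptosis, an iron-dependent cell death, and SRT1720 was developed as a SIRT1 activator. The labels name no vehicle and do not say whether the 2 libraries of a group came from separate cultures, so the p-values measure the spread between libraries, which may be technical.

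Complexes I to IV sit in the inner mitochondrial membrane, pass electrons from NADH and succinate to oxygen, and pump protons out of the matrix, except for complex II, which pumps none. Complex V uses the returning protons to make ATP. A few core subunits of complexes I, III, IV and V are encoded by mitochondrial DNA. The others, and all of complex II, are made from nuclear genes and imported, so that the nuclear transcripts give only one side of each complex. The nuclear genes are known as targets of the factors NRF1, NRF-2 (GABPA with GABPB1), ERR-alpha (Esrra) and YY1, with the PGC-1 coactivators. The mitochondrially encoded subunits were not analysed here. The acyl carrier Ndufab1, cytochrome c1 (Cyc1) and cytochrome c (Cycs) fall outside the name pattern.

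Libraries held 20579097 to 21287580 counts each. Of 10 fibroblast markers 9 were in the table and tested, led in the control by Col1a1 at a mean of 2788 CPM, a gene's counts relative to the TMM-adjusted library total, Vim at 2375 and Fn1 at 1844, whereas Dcn was at 0.196. Of 28 markers of other cell types (macrophage, endothelium, epithelium, neural, muscle, adipocyte and chondrocyte) 27 were in the table. In every group 16 of the 27 had a mean of under 1 CPM, Ptprc, Pecam1, Epcam and Cdh1 among them, and Myog and Plin1 were at 0 in all libraries. Summed over the 27, the level was 295 to 326 CPM in the control libraries, 323 to 378 with SRT1720, 397 to 447 with RSL3 and 532 to 538 with both compounds. Nes (225 CPM in the control), Sox9 (30.1), Tubb3 (28.6) and Cd14 (12.8) held most of it, and Sox9 rose to 161 CPM with RSL3 (edgeR adjusted p = 2.18e-06) and 246 CPM with both compounds. Their part in the results was not tested. In control and RSL3 the libraries numbered 2 departed from those numbered 1 in the same genes. The deviations correlated at r = 0.70 over 8637 genes with a mean of at least 10 CPM. Over the 77 subunits, taken without that limit, r was 0.90. These include the low-abundance gene Cox6a2, which was far lower in the second library of both groups. The correlation without Cox6a2 was not computed, so the 2 values of r are not comparable. Results for the subunits are given with and without these libraries.

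Each CPM value was scaled by TMM, which sets the bulk of genes level between libraries. With scaling by library size alone, the middle of all genes lay lower after RSL3: the median log2 change of the 12618 genes tested was -0.274 in place of 0.00976. The direction of a small change in these genes therefore depends on the scaling, and both are given. In bulk RNA, fewer cells of a type and less RNA per cell cannot be told apart.

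Of the 83 genes, 77 had enough counts to be tested (36 of complex I, 4 of II, 8 of III, 12 of IV and 17 of V). The other 6 were Ndufa4l2, Ndufb4c, Cox4i2, Cox6b2, Cox7a1 and Cox8b. Together the 83 genes took 1.14% and 1.08% of all counts in the 2 control libraries, 1.15% and 1.14% with SRT1720, 1.09% and 1.03% with RSL3 and 0.995% and 1.10% with both compounds. The groups therefore lay within a narrow band, with the first library of both compounds lowest. Complex V took the most of it, 0.532% and 0.523% of counts in the control, and complex II the least, 0.0429% and 0.0418%. These shares are sums of counts per gene, not per length.

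Divided by transcript length (the median of a gene's annotated transcripts), levels in the control ran from 1.05 CPM per kilobase for Cox6a2 to 1033 for Atp5b, the catalytic beta subunit of the ATP synthase. The median over the 77 genes was 97.2 CPM per kilobase. By complex it was 201 for V, 160 for IV, 138 for III, 65.0 for I and 55.6 for II. After Atp5b came Cox6a1 at 773, Cox8a at 629, Atp5d at 436, Atp5g2 at 392 and Cox4i1 at 356 CPM per kilobase, so that the 6 highest were all subunits of complexes IV and V. The lowest of complex I was Ndufb2 at 7.81. Taking instead the longest annotated transcript of each gene, the median length was 875 bases, against 3168 bases over all genes tested, at a GC content of 51% against 50.3%.

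Promoter windows of 67 of the 83 genes were in the RefSeq table (GRCm38.p6), each from 250 bases before the start to 50 bases after it. A gene with several windows was counted once, as matched if any of them matched. On either strand, the NRF1 letters GCGCATGC were found for 14.9% of these genes. The share was 5.88% of 10099 tested genes and 3.05% of all 27025 genes with a window. The YY1 letters AAGATGGC were in 14.9%, against 5.36% and 3.19%, and the ESRRA letters AAGGTCA in 11.9%, against 3.68% and 5.38%. The GABPA letters CCGGAAGT were in 7.46%, against 9.09% and 4.31%, and the SP1 letters GGGCGG in 40.3%, against 68.7% and 38.2%. The hypoxia element letters ACGTG were in 25.4%, against 29.4% and 21.8%, and the TATA box letters TATAAA in 10.4%, against 8.64% and 15.7%. For GABPA, SP1, ACGTG and TATAAA the subunits thus lay above one background and below the other. The genes with NRF1 letters were Atp5g2, Atp5k, Atp5l, Cox6a1, Ndufa11, Ndufa6, Ndufa8, Sdhb, Uqcr11 and Uqcrc1. These matches describe letters in a window and not bound sites, and none of these factors was assayed. The 250 bases before the start are shown for a subunit that rose after RSL3 (Atp5l), the subunit lower with both compounds than with SRT1720 (Uqcrh), the subunit higher in each comparison of RSL3-treated with other cells (Cox7a2l), and the assembly factor that rose most (Higd1a). Capitals mark matches to the NRF1, GABPA, ESRRA and YY1 letters. Shorter or commoner letters are left in lower case.
Atp5l, chr9:44920743-44920992, minus strand: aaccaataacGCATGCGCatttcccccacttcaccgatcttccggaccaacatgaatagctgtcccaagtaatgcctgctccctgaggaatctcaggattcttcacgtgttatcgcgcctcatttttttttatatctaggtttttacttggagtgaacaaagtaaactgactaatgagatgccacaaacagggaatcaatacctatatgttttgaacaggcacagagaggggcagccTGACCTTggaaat
Uqcrh, chr4:116075071-116075320, minus strand: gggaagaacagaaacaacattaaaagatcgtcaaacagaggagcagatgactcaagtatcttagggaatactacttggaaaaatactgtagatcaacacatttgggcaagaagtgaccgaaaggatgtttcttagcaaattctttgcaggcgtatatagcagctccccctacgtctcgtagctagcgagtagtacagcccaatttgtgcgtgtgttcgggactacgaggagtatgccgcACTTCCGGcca
Cox7a2l, chr17:83514334-83514583, minus strand: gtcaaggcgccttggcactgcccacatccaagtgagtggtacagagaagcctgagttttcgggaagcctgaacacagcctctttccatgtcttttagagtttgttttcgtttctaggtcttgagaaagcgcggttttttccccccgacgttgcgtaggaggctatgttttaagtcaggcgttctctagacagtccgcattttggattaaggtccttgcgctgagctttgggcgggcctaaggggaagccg
Higd1a, chr9:121857797-121858046, minus strand: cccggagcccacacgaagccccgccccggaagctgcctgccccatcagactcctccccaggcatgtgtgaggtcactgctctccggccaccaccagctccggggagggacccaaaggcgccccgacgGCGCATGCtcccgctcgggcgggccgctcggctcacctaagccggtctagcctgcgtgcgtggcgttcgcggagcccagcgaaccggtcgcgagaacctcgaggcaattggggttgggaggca
Atp5l had matches to NRF1 and ESRRA letters, Uqcrh to GABPA letters and Higd1a to NRF1 letters. Cox7a2l had no match to these letters.

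RSL3 was set against control to see how these transcripts differed after it. With TMM scaling 12 of the 77 tested subunits rose and 0 fell (edgeR quasi-likelihood test, Benjamini-Hochberg adjusted p under 0.05 over all genes tested), whereas 18.3% of all genes tested rose and 17.5% fell. The 12 were 6 of 12 in complex IV (Cox6c, Cox4i1, Cox7c, Cox7a2l, Cox6b1, Cox5a), 4 of 17 in complex V (Atp5md, Atp5l, Atp5d, Atp5b), 1 of 8 in complex III (Uqcr10) and 1 of 36 in complex I (Ndufa2). None of the 4 subunits of complex II passed. At an unadjusted p under 0.05, 17 were higher and 0 lower, where 2862 of the 12618 genes tested were higher and 2801 lower. With scaling by library size alone 0 rose and 7 fell, 3 of them in complex I, 2 in complex II and 1 each in III and V. Those 7 were 9.09% of the subunits, where 37.1% of all genes tested fell and 9.67% rose under that scaling. The median change of the subunits lay above the median of all genes by 0.136 on the log2 scale with TMM and by 0.135 with library size alone. These 2 scalings shift all genes of a library alike. With trends on GC content and transcript length removed the difference was 0.0394.

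**Figure D1:**
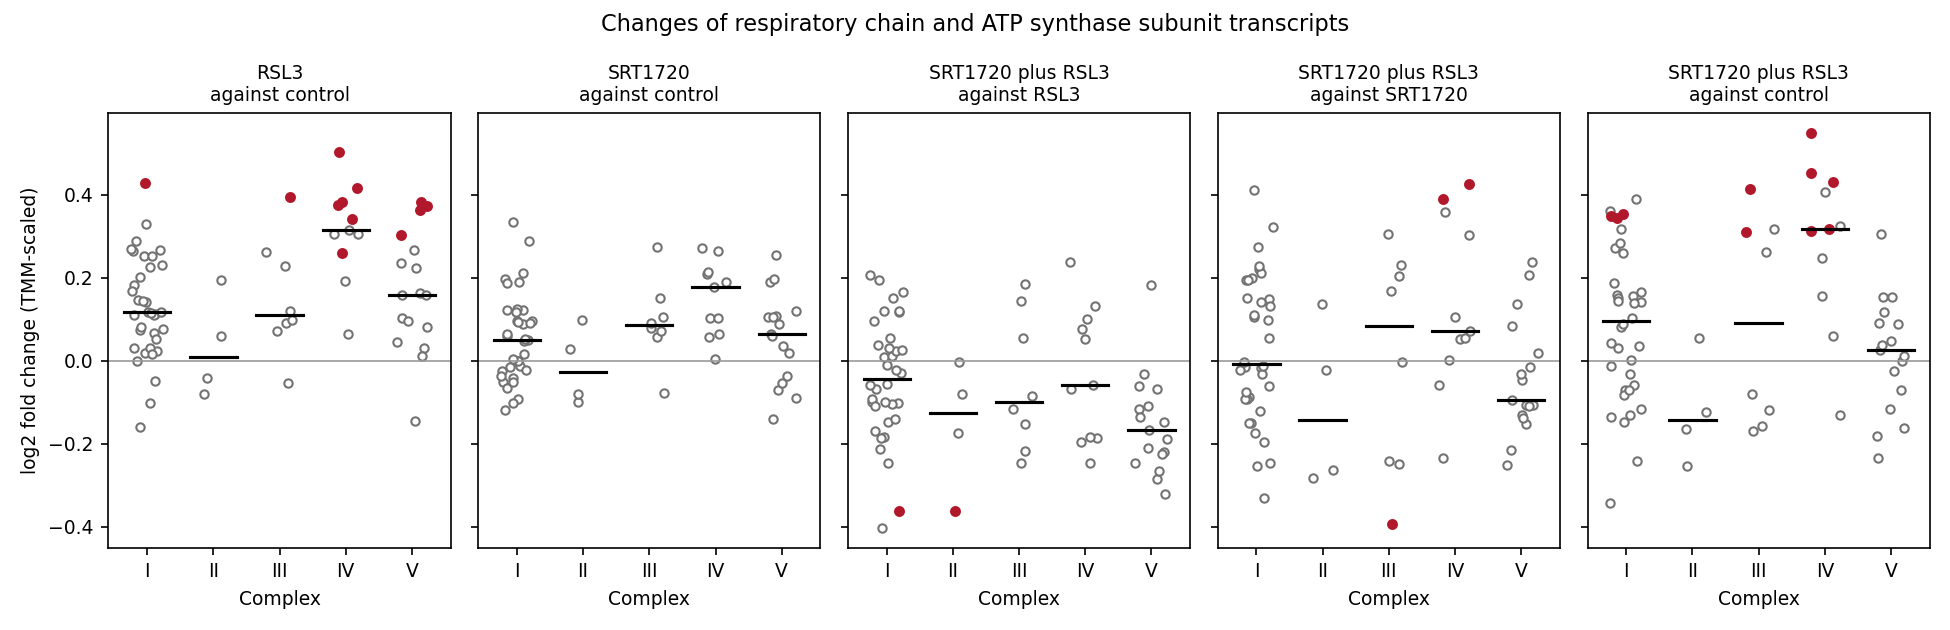
Log2 fold change (TMM scaling) of each tested subunit except Cox6a2, by complex, in 5 comparisons. Points are genes, filled red where the adjusted p was under 0.05, and bars are medians of the points. All points lie between -0.403 and 0.55, and complex IV holds 6 of the 12 filled points for RSL3 against control. Scaled by library size alone, 0 of the 77 tested subunits were higher and 7 lower in that comparison. Of all genes tested 9.67% were then higher and 37.1% lower.

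The changes in these genes were small beside those of the whole table. After RSL3, 76 of the 77 subunits (98.7%) were within 0.5 of no change on the log2 scale, against 66% of all genes tested. None was beyond 1, against 13% of all genes. Their changes ran from -0.159 (Ndufb3) to 0.503 (Cox6c) with an SD of 0.143, whereas all genes had an SD of 0.806. Both RSL3 libraries were above both control libraries in 44 of the 77 (57.1%, against 31.9% of all genes tested) and below them in 3 (3.9% against 31.6%), with TMM. The balance turned under library-size scaling, where 16 of the 77 log2 changes were above 0 and 61 below, against 69 above 0 with TMM. Of the 12618 genes tested, 3547 were above 0 under library-size scaling and 6422 with TMM. These spreads are descriptions, and no test of the difference in size was made. The 95% confidence interval of a subunit's change had a median width of 0.505 on the log2 scale.

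**Figure D2:**
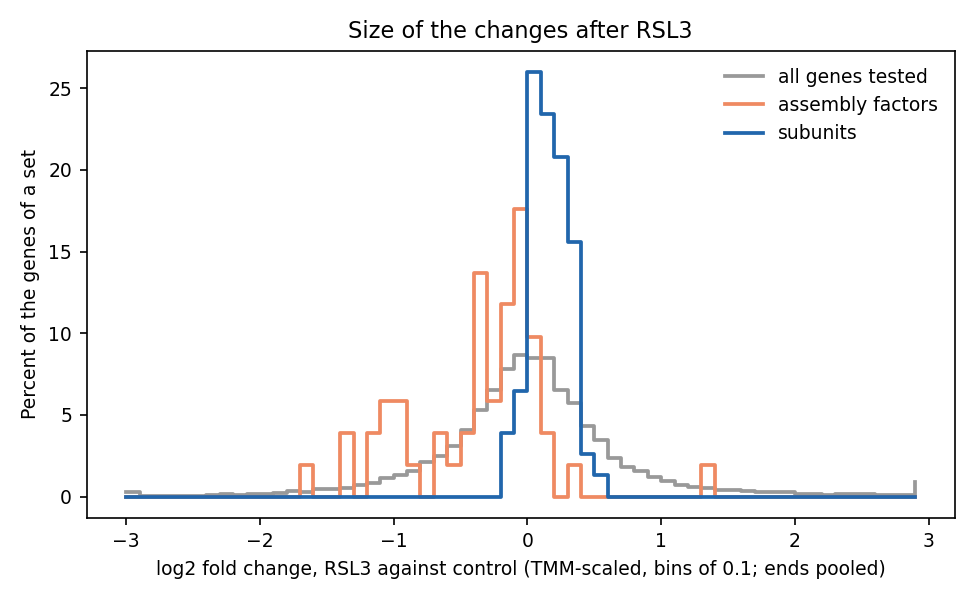
Distribution of log2 fold changes (TMM scaling) for RSL3 against control, as the percentage of each set in bins of 0.1, with values beyond the ends pooled in the end bins. Lines stand for 12618 genes tested, 51 assembly factors and 77 subunits. Subunits lie between -0.159 and 0.503, while 17.6% of assembly factors and 13% of all genes tested are beyond 1 in either direction.

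In complex IV, which reduces oxygen with electrons from cytochrome c, Cox6c had the smallest adjusted p of all subunits. This small membrane subunit stood at 95.8 and 98.1 CPM in the control libraries, 121 and 112 with SRT1720, 138 and 136 with RSL3, and 111 and 131 with both compounds. Its RSL3 libraries were above both control libraries, and the log2 change was 0.50 (SE 0.10, edgeR adjusted p = 0.00404). That call was kept in 17 of 18 alternatives and ended with scaling by library size alone (0.218, adjusted p = 0.102). Cox4i1, an early-assembling subunit and the site of allosteric inhibition by ATP, stood at 295 and 242 CPM in the control, 291 and 322 with SRT1720, 392 and 325 with RSL3, and 369 and 417 with both. The lower RSL3 library exceeded the higher control library by little, and the log2 change was 0.42 (SE 0.13, adjusted p = 0.032, edgeR), against 0.13 with scaling by library size alone.

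Cox7a2l, which joins complexes III and IV in supercomplexes, stood at 81.3 and 88.7 CPM in the control, 95.4 and 82.3 with SRT1720, 117 and 104 with RSL3, and 113 and 120 with both. All 4 libraries with RSL3 were above all 4 without it, and the log2 change for RSL3 against control was 0.38 (SE 0.11, edgeR adjusted p = 0.0235). Cox7c (0.38), Cox6b1 (0.34) and Cox5a (0.26) also rose on the log2 scale, with adjusted p of 0.026, 0.0413 and 0.0436 in edgeR. Part of the reads of Cox5a were shared with other genes, so its value is uncertain, and its call was kept in 4 of 18 alternatives. Without TMM, by library size alone, Cox5a turned to -0.0242 and all 3 lost the call. Cox5b, the zinc-binding partner of Cox5a, had 119 and 103 CPM in the control and 140 and 115 with RSL3. These libraries overlapped (log2 change 0.19, adjusted p = 0.267).

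The remaining tested subunits of complex IV did not pass. Cox6a1, at 479 and 404 CPM in the control and 607 and 484 with RSL3, had a log2 change of 0.31 (95% interval -0.0193 to 0.632). Cox8a had 350 and 343 CPM in the control and 475 and 386 with RSL3, a change of 0.32 (adjusted p = 0.0855, edgeR). Cox7a2 (reads shared with other genes) had a change of 0.31 and Cox7b of 0.065. The 12 tested genes of complex IV had a median change of 0.311, higher than that of the other complexes, and all 12 were above 0. When libraries were scaled by size alone the median was 0.0261 and 8 of 12 were above 0. With trends on GC content and length removed it was 0.0928, 10 of 12 were above 0 and 3 were called. No test of the difference between complexes was made.

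Complex IV has tissue forms of several subunits, and the fibroblasts used the widely expressed ones. Cox4i2, the lung and hypoxia form, had 0 counts in all 8 libraries, a result that allows up to 3 counts in a library. Cox6b2, the testis form, had 0 to 2 counts per library, Cox7a1, the heart and muscle form, 0 to 2, and Cox8b, also a muscle form, 0 to 1. Cox6a2, the muscle partner of Cox6a1, was the one low-abundance gene tested, at 28 and 5 counts in the control libraries, 34 and 30 with SRT1720, 31 and 2 with RSL3, and 33 and 30 with both compounds. The libraries numbered 2 of control and RSL3 were thus far below the other 6, and its change for RSL3 against control had a 95% interval of -1.69 to 2.24. Left out one at a time, RSL3 replicate 1 took that change to -2.72 and control replicate 1 to 1.94. In complex I, Ndufa4l2, the hypoxia-induced relative of Ndufa4, had 3 to 11 counts.

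**Figure D3:**
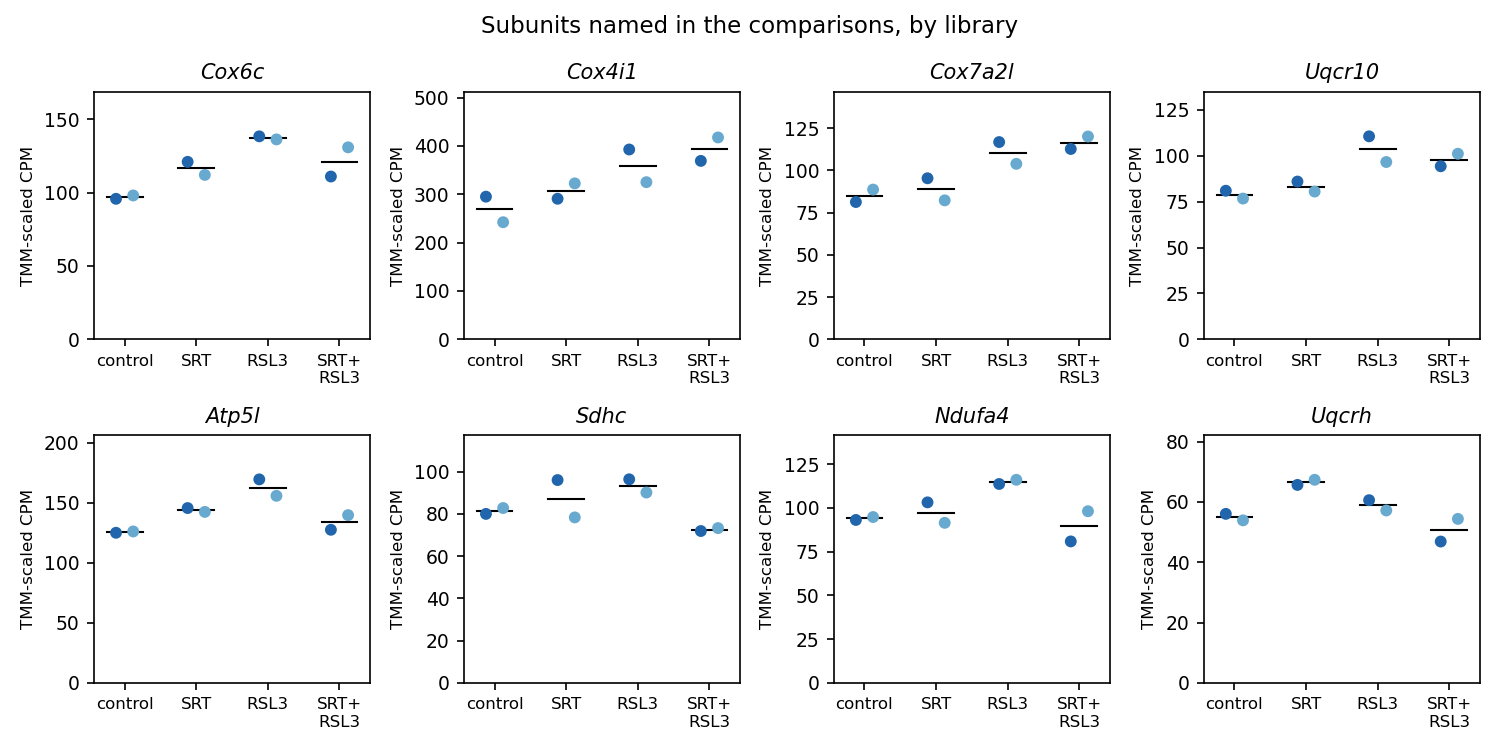
TMM-scaled CPM of 8 subunits in each library, by group, on axes that start at 0. Dark points are libraries numbered 1, light points those numbered 2, and bars are means of the pair. Cox7a2l was at 104 to 120 CPM in the 4 libraries with RSL3 and at 81.3 to 95.4 in the others; with scaling by library size alone no subunit shown here was called higher.

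In complex V, Atp5b rose. It stood at 1956 and 2003 CPM in the control, 2003 and 2007 with SRT1720, 2481 and 2404 with RSL3, and 2139 and 2270 with both compounds. The log2 change was 0.30 (SE 0.0823, edgeR adjusted p = 0.0169), against 0.0189 with scaling by library size alone. Its partner in the catalytic head, the alpha subunit Atp5a1, stood at 575 and 592 CPM in the control and 582 and 672 with RSL3, where the libraries overlapped (0.10, adjusted p = 0.431). Atp5l, subunit g of the membrane part, had 125 and 126 CPM in the control, 146 and 142 with SRT1720, 169 and 156 with RSL3, and 128 and 140 with both. Its control pair lay close together and below the other 6 libraries, and the change with RSL3 was 0.37 (SE 0.0924, adjusted p = 0.0108, edgeR).

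Atp5md, a small membrane subunit also called DAPIT, had 68.9 and 76.8 CPM in the control, 93.1 and 81.0 with SRT1720, 94.9 and 95.3 with RSL3, and 71.7 and 86.5 with both (0.38 for RSL3 against control, SE 0.12, edgeR adjusted p = 0.0315). Atp5d, the delta subunit of the central stalk, changed by 0.36 on the log2 scale (adjusted p = 0.038, edgeR). The other 13 tested subunits of complex V were not called, and 16 of all 17 were above 0. Under library-size scaling Atp5l was at 0.0895, Atp5md at 0.1, and 4 of the 17 were above 0. Atpif1, the ATP synthase inhibitor, which lies outside the name pattern, had 122 and 110 CPM in the control and 144 and 126 with RSL3 (0.22, adjusted p = 0.156).

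In complexes I, II and III, 2 of 48 tested subunits rose with TMM. Ndufa2, an accessory subunit of the peripheral arm, was the one subunit of complex I to rise. It had 25.19 and 22.46 CPM in the control, 22.17 and 25.01 with SRT1720, 36.1 and 28.1 with RSL3, and 28.3 and 28.8 with both (0.43 for RSL3 against control, SE 0.14, edgeR adjusted p = 0.0359; 0.144 with scaling by library size alone). The RSL3 libraries differed from each other by more than the lower one differed from the control. Core subunits that carry the flavin or iron-sulfur clusters did not pass: Ndufs1 had a log2 change of -0.102, Ndufv1 0.118, Ndufs7 0.0312 and Ndufs8 0.253. Scaled by library size alone, Ndufs1 fell (-0.386, edgeR adjusted p = 0.0244).

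All 4 subunits of succinate dehydrogenase, complex II, were within 0.2 of no change after RSL3. Sdha, the flavoprotein, had a log2 change of -0.0424, the iron-sulfur protein Sdhb of 0.0593, and the membrane anchors Sdhc and Sdhd of 0.196 and -0.0791. Scaled by library size alone Sdha (-0.327) and Sdhd (-0.364) fell with adjusted p of 0.0165 and 0.0186 in edgeR. In complex III, Uqcr10, a small membrane subunit, had 80.9 and 76.7 CPM in the control, 86.0 and 80.5 with SRT1720, 111 and 96.6 with RSL3, and 94.3 and 101 with both (0.39 for RSL3 against control, SE 0.10, edgeR adjusted p = 0.0138). All 4 libraries with RSL3 were above the other 4, although the change was 0.109 (adjusted p = 0.421) with scaling by library size alone. The log2 change was 0.12 for the core protein Uqcrc1 and -0.0536 for the Rieske iron-sulfur protein Uqcrfs1, neither past the threshold. By library size alone Uqcrfs1 fell (-0.338, edgeR adjusted p = 0.0124).

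The number of subunits called after RSL3 rested on single libraries. It was lower without either control library, RSL3 replicate 1 or either SRT1720 library, and higher without RSL3 replicate 2. The median log2 change of the subunits was lowest without RSL3 replicate 1 (0.0882) and highest without RSL3 replicate 2 (0.191). Over all genes tested the medians with 1 library left out ran from -0.0161 to 0.0207. With the second libraries of control and of RSL3 both left out, the median was 0.16 over the subunits and 0.00358 over all genes tested. With trends on GC content and transcript length removed 5 rose (6.49%) and 1 fell (1.3%). The median of all members was then 0.0129, against -0.0265 over all genes tested. Of all genes tested 19% rose and 21.2% fell in that setting. Of the 18 alternatives, Cox7a2l and Atp5b kept the call in 14, Cox7c and Atp5md in 13, Uqcr10 and Atp5l in 12, Cox6b1 in 9, Cox4i1 in 8, and Ndufa2 and Atp5d in 7.

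**Figure D4:**
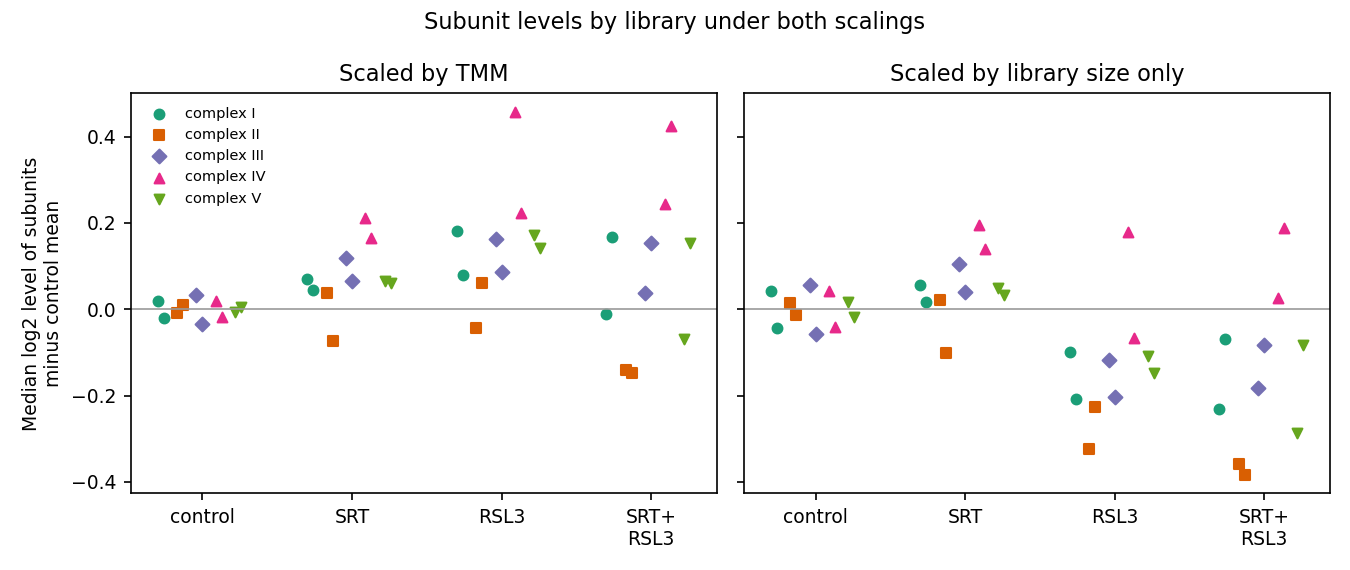
Median log2 level of the tested subunits of each complex in each library, minus the mean of the control libraries, with TMM scaling (left) and with scaling by library size alone (right). Symbols stand for complexes and each symbol is 1 library. With TMM complex IV is at 0.458 and 0.223 in the RSL3 libraries, and with library size alone at 0.178 and -0.0657.

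SRT1720 given alone was compared with control to ask what it did without RSL3. No subunit passed (0 of 77 in either direction, edgeR adjusted p under 0.05), where 1.1% of all genes tested rose and 0.206% fell (1.31% in either direction). At an unadjusted p under 0.05, 6 were higher and 0 lower, where 1058 of the 12618 genes tested were higher and 614 lower. DESeq2 also called 0 subunits. The median log2 change was 0.0725, and it was 0.184 in complex IV, where all 12 tested genes were above 0 (11 of 12 with scaling by library size alone). With trends on GC content and length removed these medians were -0.0142 and 0.085, and 8 of the 12 were above 0. The smallest p belonged to Ndufa12, an accessory subunit of complex I, at 121 and 107 CPM in the control and 140 and 137 with SRT1720. Its libraries did not overlap and its log2 change was 0.29 (95% interval 0.0552 to 0.522, adjusted p = 0.259, edgeR). Apart from Cox6a2, changes ran from -0.141 (Atp5mpl) to 0.335 (Ndufb2).

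In cells treated with RSL3, SRT1720 pretreatment lowered 2 subunits and raised 0 of 77 (8.75% and 11.4% of all genes tested, 20.2% in either direction). Sdhc, a membrane anchor of complex II, had 96.3 and 90.1 CPM with RSL3 and 71.9 and 73.2 with both compounds, below the control pair at 79.95 and 82.73. Its log2 change was -0.36 (SE 0.11, edgeR adjusted p = 0.0473). Ndufa4, counted with complex I by its name and later assigned to complex IV, had 114 and 116 CPM with RSL3 and 80.8 and 98.0 with both (-0.36, SE 0.11, edgeR adjusted p = 0.0496). Both calls lay close to the threshold and ended with scaling by library size alone, where both changes were -0.305. Each also ended when any 1 library of the control, RSL3 or both compounds was left out.

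Over all 77 the median change for both compounds against RSL3 was -0.0844. In complex V 16 of 17 subunits were below 0 with a median of -0.167, and 8 of 17 (47.1%, against 29.3% of all genes tested) had both libraries below both RSL3 libraries. Without TMM, by library size alone 15 of 17 were below 0. None of them passed. At an unadjusted p under 0.05, 3 of the 17 were lower, where 2047 of the 12618 genes tested were lower. With the second libraries of control and RSL3 both left out, the median change was -0.116 over all subunits and -0.00305 over all genes tested.

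Against SRT1720 alone, cells given both compounds had 2 subunits higher and 1 lower of 77 (12.3% and 9.06% of all genes tested), with a median change of -0.00226. Cox7a2l rose by 0.39 (SE 0.11, edgeR adjusted p = 0.0316) and Cox5b by 0.43 (SE 0.13, adjusted p = 0.037), the latter from 106 and 118 CPM to 143 and 158. Neither was called with scaling by library size alone, where the changes were 0.183 and 0.219. Uqcrh, the hinge protein that links complex III to cytochrome c, fell from 65.7 and 67.4 CPM with SRT1720 to 46.9 and 54.4 with both, while it stood at 56.1 and 53.9 in the control and 60.6 and 57.2 with RSL3. Its change was -0.39 (SE 0.11, edgeR adjusted p = 0.025), and -0.601 (adjusted p = 0.00317) with scaling by library size alone. Each of these 3 calls ended without either SRT1720 library, the 2 rises also without either library of both compounds, and that of Uqcrh also without the first of these. When libraries were scaled by size alone, 20 of the 77 subunits (26%) fell and 0 rose, close to the 24.3% of all genes tested that fell. When the second libraries of control and RSL3 were both left out, more subunits were called in each direction. More of all genes tested were then called too, and the share of subunits called stayed below theirs.

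Cells given both compounds were also compared with control. With TMM 10 subunits rose and 0 fell (17.4% and 14.1% of all genes tested): Cox4i1, Cox7a2l, Cox5a, Cox5b and Cox6c in complex IV, Uqcr10 and Uqcr11 in complex III, and Ndufa12, Ndufa13 and Ndufb9 in complex I. Cox4i1 changed by 0.55 (SE 0.13, edgeR adjusted p = 0.0111), the largest of these 10, and Cox7a2l by 0.45 (SE 0.11, adjusted p = 0.012). Uqcr11, a small subunit of complex III, had 83.3 and 72.0 CPM in the control and 97.5 and 109 with both, without overlap (0.41, SE 0.12, edgeR adjusted p = 0.0243). Cox5a changed by 0.31 (adjusted p = 0.0231, edgeR). No subunit of complex V or II was called.

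The count of 10 became 0 with scaling by library size alone, where 15 (19.5%) fell, against 31.8% of all genes tested. The count was also lower when the second libraries of control and RSL3 were both left out, while more of all genes tested were called. It was lower, too, without either control library, either SRT1720 library or either library of both compounds, and highest without RSL3 replicate 1. The median change of the subunits was -0.0361 without the second library of both compounds and 0.17 without the first, the ends of its range. Over all genes tested the median ran from -0.0148 to 0.00736. With GC and length trends removed 4 rose (5.19%) and 8 fell (10.4%), where 18.1% of all genes tested rose and 17.9% fell. This comparison shares its control libraries with that of RSL3 against control, so the 2 lists of subunits are not independent.

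The interaction, the effect of SRT1720 with RSL3 minus its effect without it, was called for 0 of 77 subunits (6.37% of all genes tested, 3.46% above and 2.92% below 0). At an unadjusted p under 0.05, 11 were below 0 and 0 above, where 1253 of the 12618 genes tested were below and 1426 above. DESeq2 called 1 subunit. The median was -0.125, and all 17 subunits of complex V were below 0 (14 of 17 with scaling by library size alone). Atp5l had the smallest p, with a log2 interaction of -0.48 (95% interval -0.775 to -0.19, edgeR adjusted p = 0.0601). It was past the threshold in DESeq2 (adjusted p = 0.0324), without RSL3 replicate 2 (0.0385) and when the second libraries of control and of RSL3 were both left out (0.0321), and its adjusted p was 0.0942 with scaling by library size alone.

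The subunits were set beside 52 assembly factors, proteins that build the complexes without staying in them, of which 51 could be tested (Pet117 had 1 count in all). After RSL3, 1 assembly factor rose and 20 fell with TMM, where 18.3% of all genes tested rose and 17.5% fell. By complex, 5 of 15 for complex I fell, 2 of 4 for II, 4 of 6 for III, 8 of 23 for IV and 1 of 3 for V. The median change was -0.223. On the log2 scale 9 of the 51 (17.6%) were beyond 1, against 13% of all genes tested and 0 of the 77 subunits. Under library-size scaling 1 rose and 27 fell (52.9%), where 37.1% of all genes tested fell and their median was -0.274. With single libraries left out as many or fewer fell. Their median change then ran from -0.296 to -0.2, where that of all genes tested ran from -0.0161 to 0.0207. Leaving out both second libraries of control and RSL3 gave -0.209, against 0.00358 over all genes tested.

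For complex I, Tmem186, a membrane partner of the intermediate assembly complex, fell from 22.6 and 19.1 CPM in the control to 5.99 and 6.96 with RSL3, and stood at 16.8 and 15.8 with both compounds. The change was -1.69 (SE 0.14, edgeR adjusted p = 2e-05) for RSL3 against control and 1.33 (adjusted p = 0.000348) for both compounds against RSL3. Ndufaf1, a core member of that assembly complex, fell from 11.5 and 10.7 CPM to 4.68 and 4.11 (-1.34, edgeR adjusted p = 0.000538) and was at 7.18 and 10.2 with both. Ndufaf4 changed by -1.01 with RSL3. For complex II, Sdhaf1, which helps to insert iron-sulfur clusters into Sdhb, fell from 9.91 and 9.51 CPM to 4.10 and 4.95 (-1.10, edgeR adjusted p = 0.000571). Sdhaf2, which helps to attach the flavin to Sdha, changed by -0.339.

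Factors of complex III that fell included the Rieske chaperone Lyrm7, with a log2 change of -0.927 after RSL3 (edgeR adjusted p = 0.013), Uqcc1 with -0.389 and Ttc19 with -0.399. For complex IV, the copper chaperone Sco1 fell from 11.4 and 12.3 CPM to 5.62 and 5.17 with RSL3 (-1.13, SE 0.15, edgeR adjusted p = 0.000301), and was at 11.1 and 12.8 with both compounds. Cox15, an enzyme of heme A synthesis, fell from 42.5 and 41.6 to 21.3 and 21.9 (-0.962, adjusted p = 0.00014, edgeR). Higd1a, a hypoxia-inducible protein that binds complex IV, moved the other way, from 24.0 and 23.8 CPM to 59.3 and 61.1 (1.33, SE 0.12, edgeR adjusted p = 2.68e-05), and stood at 25.6 and 31.0 with both. For complex V, Atpaf1, a chaperone of the beta subunit, changed by -0.805 and stayed low with both compounds, at 10.4 and 8.84 CPM against 14.9 and 16.8 in the control.

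**Figure D5:**
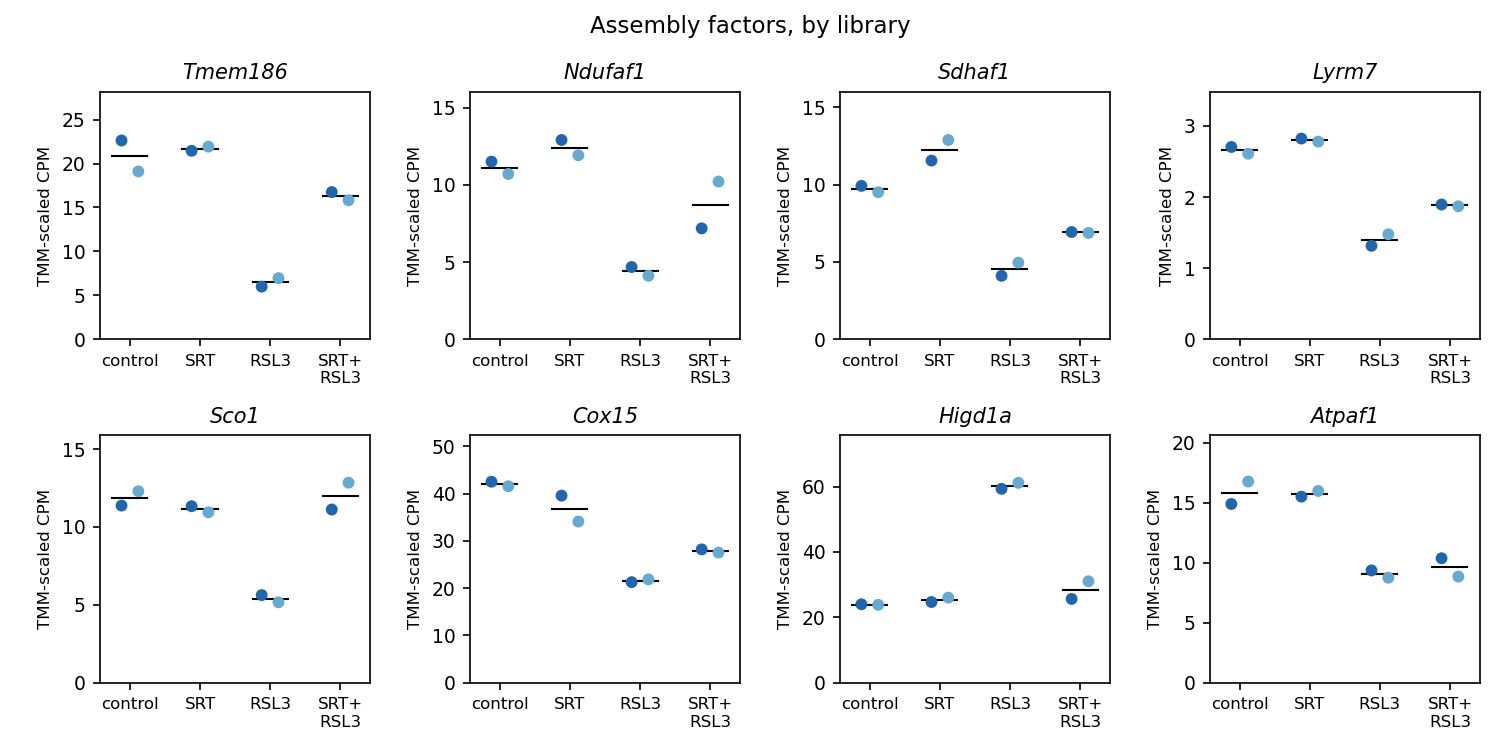
TMM-scaled CPM of 8 assembly factors in each library, by group, on axes that start at 0. Dark points are libraries numbered 1, light points those numbered 2, and bars are means of the pair. With RSL3 Higd1a is at 59.3 and 61.1 CPM against 24.0 and 23.8 in the control, while the other 7 are lower in both RSL3 libraries than in both control libraries.

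Given with RSL3, SRT1720 pretreatment raised 9 assembly factors of 51 and lowered 2, against 0 and 2 of 77 subunits, in both cases with TMM; with scaling by library size alone 10 assembly factors rose and 1 fell. Of all genes tested 11.4% rose and 8.75% fell with TMM, and 13.8% and 7.01% with library size alone. Fewer rose without either SRT1720 library or either library of both compounds. With single libraries left out the median change of the assembly factors ran from 0.11 to 0.251, and that of all genes tested from -0.0149 to 0.023. The interaction passed for Tmem186 (1.27, edgeR adjusted p = 0.00553), Sco1 (1.24, 0.00821), Higd1a (-1.17, 0.00396) and Coa4 (1.79, 0.0344), the last at under 5 CPM in every library. It passed for 6.37% of all genes tested. SRT1720 alone changed 0 of 51, where 1.1% of all genes tested rose and 0.206% fell. DESeq2 also called 0 assembly factors. At an unadjusted p under 0.05, 2 were above and 3 below, against 1058 and 614 of the 12618 genes tested. Against control, both compounds gave 2 higher and 12 lower (17.4% and 14.1% of all genes tested). Fewer were lower without either control library or either library of both compounds. The median change with single libraries left out ran from -0.181 to -0.104, and that of all genes tested from -0.0148 to 0.00736. Against SRT1720 alone both compounds gave 2 higher and 5 lower (12.3% and 9.06% of all genes tested). More were lower without either RSL3 library, and fewer without SRT1720 replicate 1 or the first library of both compounds. With single libraries left out their median ran from -0.179 to 0.00287, and that of all genes tested from -0.00969 to 0.000969.

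Other lists of the pathway were counted in the same way, beside 18.3% of all genes that rose and 17.5% that fell with TMM and 9.67% and 37.1% with library size alone. Of 14 enzymes of the tricarboxylic acid cycle, which feeds NADH and succinate to the chain, 0 rose and 1 fell after RSL3, the 2-oxoglutarate dehydrogenase subunit Ogdh (-0.483, edgeR adjusted p = 0.00161; 226 and 219 CPM in the control against 157 and 161). Scaled by library size alone 8 of the 14 fell. Of 10 subunits and carriers outside the name pattern, 1 fell (3 with scaling by library size alone), the ubiquinone synthesis factor Coq9 (-0.648, edgeR adjusted p = 0.00219). Of 19 tested regulators 2 rose and 3 fell after RSL3 (2 and 9 with scaling by library size alone). The mitochondrial DNA helicase Twnk rose from 36.2 and 36.8 CPM to 64.1 and 63.3 (0.802, adjusted p = 0.000234, edgeR), and Gabpb1, the partner of GABPA in NRF-2, rose from 32.4 and 37.7 to 50.3 and 60.5 (0.659, adjusted p = 0.00239). Polrmt, the mitochondrial RNA polymerase, fell from 76.1 and 71.4 to 40.8 and 32.8 (95% interval of the log2 change -1.31 to -0.701, edgeR adjusted p = 0.000353). These 3 kept their direction with scaling by library size alone, at 0.517, 0.376 and -1.29.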

How the data were processed

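RNA from mouse embryonic fibroblasts, 4 groups of 2 libraries, was sequenced from TruSeq Stranded mRNA LT libraries, per the labels' protocols. The extraction text there also names HT1080 cells and lung, which are not among these samples. The authors deposited expected counts per gene, estimated read counts of which 76.6% to 77.7% per library were whole numbers; for the aligner, counter, build and filters, the entry is: not given in the sources used here. Columns were matched to samples by library names, a bare name being replicate 1 and a suffixed one replicate 2, although the spellings differ. Depth is in the opening; a count of 0 allows up to 3 counts, for counting error only. After rounding, edgeR 4.0.16 was run in R 4.3.3 with limma 3.58.1: TMM, filterByExpr (12618 genes), a quasi-likelihood fit of 4 group means over all 8 libraries, two-sided, Benjamini-Hochberg adjustment, threshold 0.05. Prior degrees of freedom were 5.73, residual 4, and the biological coefficient of variation 10.6%. Transcript lengths and GC content came from GENCODE M21 (GRCm38) and promoter windows from RefSeq. Reads were shared with other genes for 6 of the 83 genes (Atp5h, Cox5a, Cox7a2, Ndufb4, Ndufb4c, Ndufs1), whose values are uncertain; over all genes 32.8% had such values. Genes were named by rule: per complex up to 2 called members in each direction for RSL3 against control, up to 4 by p in other comparisons (or the smallest p where none passed), isoform pairs, core subunits, and up to 3 called genes per pathway list. A gene that the rule covers is not reported here. Cox7c, Cox6b1, Atp5d, Ndufa13, Ndufb9, Cox6a2, Coa4, Ndufb3, Ndufb2 and Atp5mpl are named to complete short lists or ranges, after their values were seen. The members and lists were chosen with earlier results of these data known. Alternatives were DESeq2 1.42.0, size factors, library size only, no filter, a replicate block, GC and length trends (loess, span 0.5), only the groups compared, and each library left out. The crossed block and the fit lacking the second libraries of control and of RSL3 were chosen after seeing the data. The script was tested on simulated data.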

Additional observations from a re-analysis of the deposited data

Results flagged for a closer look

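The effect of SRT1720 differed between cells with and without RSL3 for 4 of 51 assembly factors and for 0 of the 77 subunits. Of all genes tested 6.37% passed the test of that difference (edgeR, adjusted p under 0.05). The log2 difference was 1.27 for Tmem186, 1.24 for Sco1, 1.79 for Coa4 and -1.17 for Higd1a. Coa4 was at under 5 CPM in every library, and no range without single libraries is given for it. Without single libraries the difference for Tmem186 stayed between 1.15 and 1.39, that for Higd1a between -1.31 and -1.03, and that for Sco1 between 1.13 and 1.35, where the call for Sco1 ended in 3 of 8. Groups of 2 libraries are too small to look for outlying libraries.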

How the results depend on the processing

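With 2 libraries a group, the median 95% interval of a subunit's change after RSL3 was 0.505 wide on the log2 scale, which limits what a missed threshold shows. Over single genes, 1372 of 1638 values kept their direction and side of the threshold, 200 lost the call, 23 gained it and 43 turned in direction. Of 49 single-gene results past the threshold, 1 turned in direction under an alternative, that of Cox5a. The causes of these differences were not tested.

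With scaling by library size alone, the subunits called higher went to 0 for RSL3 against control, for both compounds against control and for both compounds against SRT1720. Those called lower went to 7, 15 and 20, and those lower for both compounds against RSL3 to 0. The medians of the subunits were -0.139, -0.14 and -0.21 in these comparisons, in the same order. For RSL3 against control the direction turned for Cox6a2 (-0.0114), Cox5a (-0.0242), Ndufs8 (-0.031), Atpif1 (-0.0645), Sdhc (-0.0879), Cox5b (-0.0943), Ndufv1 (-0.166), Uqcrc1 (-0.166), Atp5a1 (-0.181), Cox7b (-0.219), Sdhb (-0.226) and Ndufs7 (-0.256). For both compounds against RSL3 it turned for Twnk (0.0232).

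With trends on GC content and transcript length removed, RSL3 against control gave 5 higher, 1 lower and a median of 0.0129. Both compounds against control gave 4 higher, 8 lower and -0.0743, and both against RSL3 gave 1 higher. Both against SRT1720 gave 4 lower, and SRT1720 against control a median of -0.0142. Of all genes tested 19% were higher and 21.2% lower for RSL3 against control. For both compounds these shares were 18.1% and 17.9% against control, 13.7% and 11% against RSL3, and 14% and 11.6% against SRT1720. Values turned for Cox6a1 (-0.00503), Cox8a (-0.00772), Atpif1 (-0.0497), Sdhb (-0.0783) and Ndufs7 (-0.174) after RSL3, and for Coq9 (-0.0598) for both compounds against RSL3. With the replicate block added to these trends, RSL3 against control gave 5 higher, 1 lower and 0.0119, both against control 4, 8 and -0.073, both against RSL3 1 higher, both against SRT1720 4 lower, the interaction 2 lower, and SRT1720 against control a median of -0.0143. Cox6a1 was then at -0.00505, Cox8a at -0.00683, Atpif1 at -0.0497, Sdhb at -0.0809, Ndufs7 at -0.173 and Coq9 at -0.0517.

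The replicate numbers are shared by name only. Deviations of same-numbered libraries correlated at 0.70 for control and RSL3, at -0.29 and -0.40 for both compounds with these, and at -0.012 to -0.024 for pairs with SRT1720. With the replicate block the subunits called were 11 higher for RSL3 against control, 10 for both compounds against control and 0 for SRT1720 alone, and those lower for both compounds against RSL3 were 1. With the numbers of both compounds crossed in the replicate block, a pairing chosen after seeing the data, both against control gave 17 higher and 1 lower, both against RSL3 4 lower, both against SRT1720 4 higher and the interaction 2 lower.

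Without the low-count filter the count lower for both compounds against RSL3 was 0. With only the libraries of the groups compared, RSL3 against control gave 1 higher, both against RSL3 0 lower, and both against SRT1720 11 higher and 6 lower, while Coq9 turned to -0.000259 for both compounds against RSL3. DESeq2 called 1 lower in the interaction. When the second libraries of control and of RSL3 were both left out, also chosen after seeing the data, both against SRT1720 gave 9 higher and 5 lower and the interaction 1 lower, while Gabpb1 turned to 0.00537 for both compounds against RSL3 and Atpaf1 to -0.0387 in the interaction.

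With single libraries left out, where the lone library of a group is assumed to vary like the others, the subunits called higher ranged from 1 to 18 for RSL3 against control, with medians from 0.0882 to 0.191. For SRT1720 against control 0 were called each time, with medians from 0.0428 to 0.0985. Both against RSL3 gave 0 to 2 higher and 0 to 1 lower, with medians from -0.163 to 0.0158. Both against SRT1720 gave 0 to 5 higher and 0 to 1 lower, with -0.0697 to 0.113. Both against control gave 0 to 16 higher and 0 to 1 lower, with -0.0361 to 0.17, and the interaction 0 to 1 lower, with -0.208 to -0.0472. After RSL3 the values that turned ranged from -2.72 to 1.94 for Cox6a2, -0.118 to 0.191 for Ndufs7, -0.275 to 0.0314 for Ndufs1, -0.132 to 0.02 for Sdha and -0.00687 to 0.184 for Atp5a1. For both compounds against RSL3 they ranged from -0.0207 to 0.197 for Atpaf1, -0.0937 to 0.128 for Coq9, -0.244 to 0.00615 for Gabpb1 and -0.0929 to 0.0356 for Twnk. In the interaction they ranged from -0.0108 to 0.207 for Atpaf1 and from -0.196 to 0.0579 for Gabpb1.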
